A study of Mus musculus with 18 samples.

Results

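The 9 genes described here encode enzymes of the tricarboxylic acid (TCA) cycle, the mitochondrial pathway that oxidizes acetyl-CoA. They were taken by name from the 24062 gene symbols of the deposited expression table: Cs, Idh2, Idh3a, Idh3b, Ogdh, Sucla2, Suclg1, Fh1 and Mdh2. All 9 were in the table and all 9 passed the filter on low values. Total RNA of mouse kidney cortex was sequenced in 18 libraries, 3 in each of 6 groups. All mice were C57Bl/6. The Klf6fl/fl groups (fl/fl) carry floxed alleles of Klf6, a zinc finger transcription factor gene, and the Klf6PTKO groups (PTKO) are labelled as its knockout in the proximal tubule. Mice of each genotype were given DMSO, the vehicle, or aristolochic acid I (AAI), a nephrotoxic compound of Aristolochia plants. AAI kidneys were taken at 3 weeks or after a further 3 weeks of remodeling, called 6 weeks here as in the sample titles. The labels do not say at which week the DMSO kidneys were taken. The labels name no promoter for the deletion, no age or sex, and do not say that the libraries of a group came from separate animals. The p-values therefore measure the spread between these libraries, which may in part be technical. In the main fit that spread is pooled over all 6 groups, so it is not that of the compared groups alone.

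In the cycle, citrate synthase (Cs) joins acetyl-CoA to oxaloacetate. Further along, the isocitrate dehydrogenases and the 2-oxoglutarate dehydrogenase complex release carbon dioxide and reduce NAD+, or NADP+ in the case of Idh2. Succinyl-CoA synthetase then makes ATP or GTP, and fumarase and malate dehydrogenase close the ring. Proximal tubule cells are rich in mitochondria and make most of their ATP by oxidation, because they reabsorb the bulk of the filtered solutes. Bulk cortex RNA mixes all cell types, so fewer cells of a type and less RNA per cell cannot be told apart.

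Depth ran from 11722625 to 27213219 reads per library, with the shallowest library in fl/fl at 6 weeks (replicate 2). Levels are in CPM, the read count of a gene scaled to a common library total, and are given in replicate order 1, 2, 3. Klf6 was 39.2 to 42.3 CPM in fl/fl DMSO and 40.2 to 56.7 in PTKO DMSO, 256 to 308 and 229 to 310 at 3 weeks, and 201 to 284 and 228 to 370 at 6 weeks. The genotype differences were +0.19, −0.04 and +0.16 on the log2 scale (limma adjusted p = 1, 0.90 and 0.58). Klf6 was therefore not called lower in the libraries labelled PTKO, and directions by genotype rest on the labels. A summed set of 5 adipocyte markers reached 38.6 CPM in PTKO DMSO replicate 2 and 293.5 CPM in PTKO 6-week replicate 2, against at most 1.5 CPM in any other library. These libraries and the shallowest one are called the 3 libraries that stand apart. The DMSO libraries of a genotype are the controls at both times. Markers of the labelled tissue were present: 10 markers of its first segments summed to 19237 to 23587 CPM in the DMSO libraries, and none of the 10 was at 0 in any group.

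The genes lie on separate chromosomes of mm10 in GENCODE release M21, and all are protein coding. Cs spans chr10:128337734-128362479, Idh2 chr7:80094846-80115392, Idh3a chr9:54586334-54604661 and Idh3b chr2:130279309-130284547. Ogdh spans chr11:6291633-6356642, Sucla2 chr14:73525319-73596142, Suclg1 chr6:73248382-73276911, Fh1 chr1:175600374-175625635 and Mdh2 chr5:135778480-135790398. The members' promoters were searched on both strands in RefSeq windows of build GRCm38.p6. The motifs searched are those of factors known to act on mitochondrial genes or of the Krüppel-like class. A window runs from 250 bases before to 50 after a start site. Of the 9 members 8 matched a promoter entry, Ogdh with 6 windows and the others with 1 each, so Ogdh had more windows in which to find a match. Shares are given over all 32851 windows and over the 27025 genes with at least 1 window. The estrogen-related receptor element TCAAGGTCA was in 0 of the 8 and in 0.423% of windows (0.466% of genes). The shorter motif AAGGTCA, which the full element contains, was in Ogdh alone (4.72% of windows, 5.38% of genes). The NRF1 core CGCATGCG was in Ogdh alone (1.87% and 2.07%), and the GABPA motif CCGGAAG in Idh3b alone (8.86% and 9.93%). The GC box GGGGCGGGG was in Mdh2, Ogdh and Sucla2 (11.4% and 12.9%). The CACCC box CCACACCC, the other class of site that Krüppel-like factors bind, was in 0 of the 8 (3.56% and 4.09%). The same search covered 7 further cycle genes with a window. There the full receptor element and AAGGTCA were in Sdhd alone, and the GABPA motif in 4 (Dlst, Idh3g, Sdhb and Sdhd). The GC box was in Sdhb and Suclg2, and the NRF1 core and the CACCC box in 0. Matches are a description of these letters in these windows only.

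A set of 3 upstream stretches of 80 bases is printed to show what such a match looks like beside a gene without one. They are 1 member with a GC box, the partner gene Suclg2 with 2, and Cs, with no exact match to the motifs searched. Cs is the member with the smallest changes on CPM. Only exact letters were counted, and the Cs stretch holds all but the last letter of the GC box on each strand. Each is given 5′ to 3′ on the gene's own strand, with the GC box or its reverse complement in capitals. The Mdh2 stretch is chr5:135778399-135778478 (+ strand), the Suclg2 stretch chr6:95718847-95718926 (− strand) and the Cs stretch chr10:128337647-128337726 (+ strand), and none overlaps a GENCODE exon.
Mdh2: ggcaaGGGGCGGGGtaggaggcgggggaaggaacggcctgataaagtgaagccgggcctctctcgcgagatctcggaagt
Suclg2: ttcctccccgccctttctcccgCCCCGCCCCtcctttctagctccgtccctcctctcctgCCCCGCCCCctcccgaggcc
Cs: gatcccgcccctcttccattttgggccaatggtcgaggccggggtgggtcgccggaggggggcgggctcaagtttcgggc

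In DMSO kidneys of fl/fl mice the members differed in level per length of transcript. On the scale of CPM per kilobase of the longest basic coding transcript, Mdh2 was highest at 348 ± 3.2 (SD, n = 3), with Idh2 at 334 ± 12.1 and Ogdh at 285 ± 8.0 next. Mdh2 and Idh2 overlapped at this level only at the ends of their ranges, with libraries of 344 to 350 and 321 to 345. Suclg1 (222 ± 5.7) and Idh3b (208 ± 4.9) were intermediate, then Cs (137 ± 1.6) and Sucla2 (102 ± 3.6). Fh1 (73.8 ± 1.0) and Idh3a (68.1 ± 2.0) were lowest. Mdh2 stayed the highest of the 9 in all 6 groups. Idh3a, last in both DMSO groups, ranked above Sucla2 and Fh1 in every AAI group.

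Fewer reads came from the cycle after AAI in both genotypes. The 9 members summed to 3936 ± 26 CPM in fl/fl DMSO, 2258 ± 127 at 3 weeks and 2751 ± 266 at 6 weeks (SD, n = 3 each). In the PTKO-labelled kidneys the sums were 4083 ± 84.5, 2855 ± 251.3 and 3390.5 ± 179 CPM. The fl/fl sum at 3 weeks was thus 57.4% of its DMSO mean and the PTKO sum 69.9%, and at 6 weeks the shares were 69.9% and 83.0%. Every AAI library lay below every DMSO library of its genotype in this sum. The sum over a chosen list was not tested.

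**Figure D1:**
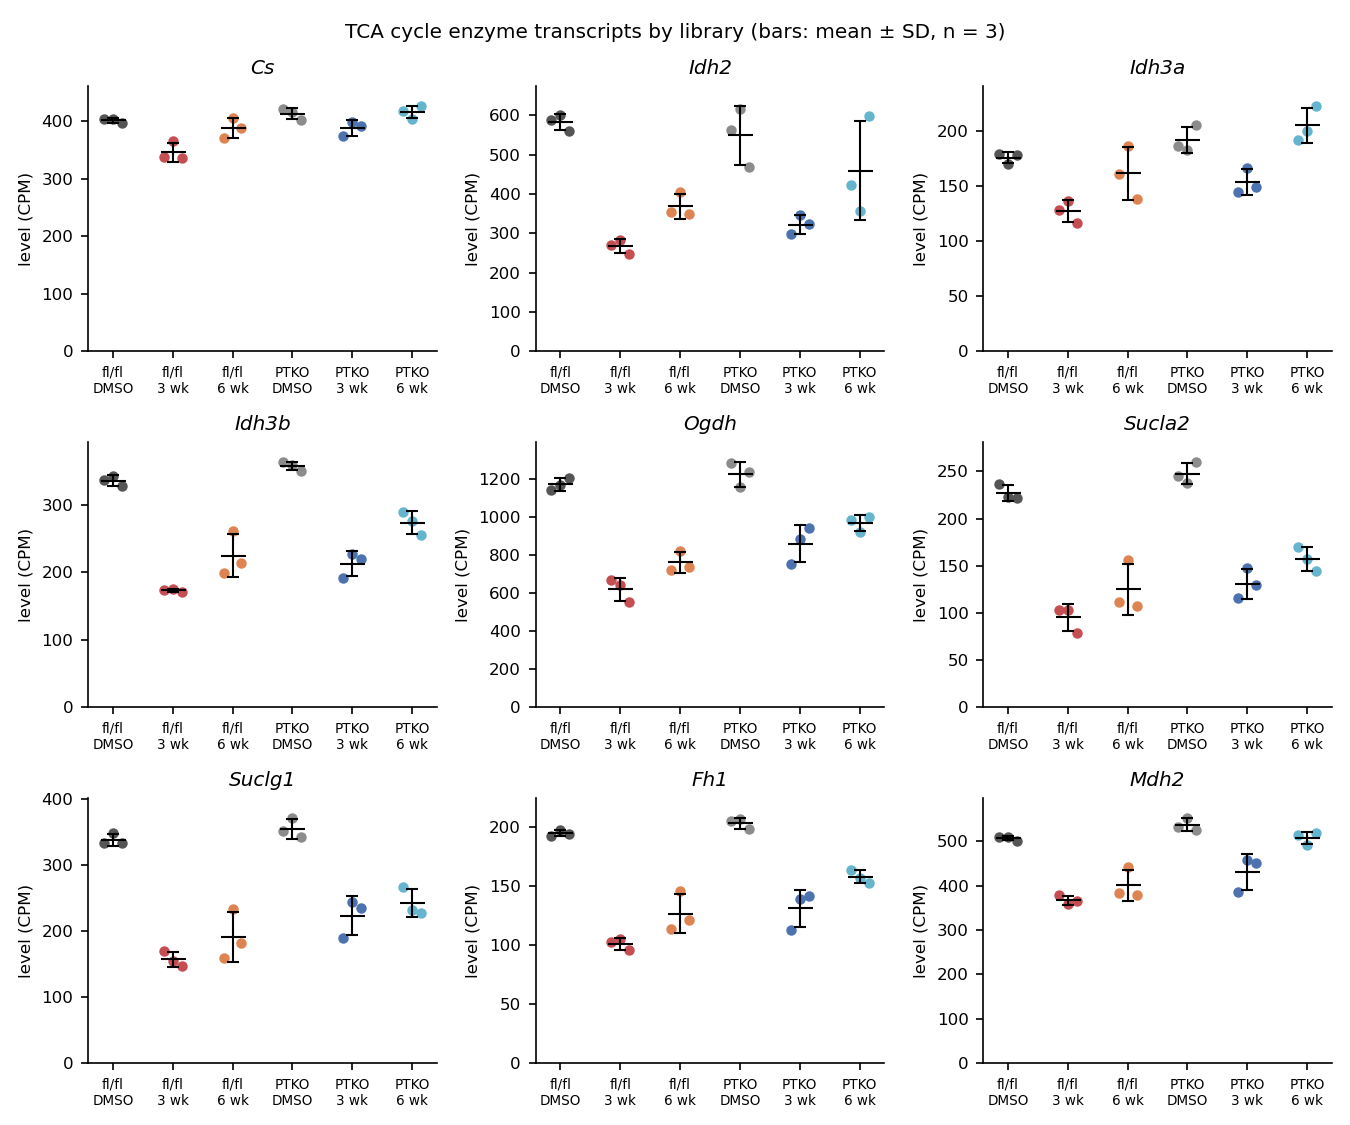
Level of each of the 9 cycle enzymes in CPM (y axis, from 0) in the 18 libraries by genotype and treatment, with points for libraries and bars for mean ± SD (n = 3). Sucla2 falls from 222 to 236 CPM in fl/fl DMSO to 79.2 to 103 at 3 weeks, while Cs stays between 336 and 427 CPM in every library.

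The first question the design poses is what AAI did to these transcripts in fl/fl kidneys. At 3 weeks all 9 members fell, while 18.2% of the 14604 genes tested were called lower and 58% higher. Their log2 changes ran from −0.21 (Cs) to −1.25 (Sucla2) with a median of −0.94, while with quantile normalization Cs was 0.02 higher (adjusted p = 0.79) and Mdh2 was not called (−0.18, adjusted p = 0.055). Calls are limma estimates on log2(CPM + 1) with a Benjamini-Hochberg adjusted p under 0.05 over all genes tested. The median gene of the whole table moved by +0.45 in this comparison, so the members' median was −1.39 relative to it. Median-of-ratios scaling, which removes that shift, left 5353 genes higher and 4999 lower where the CPM gave 8466 and 2651, and it called all 9 members lower. In all 9 every AAI library lay below every DMSO library, as in 19.9% of genes tested.

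At 6 weeks in fl/fl, 7 of the 9 members were lower than DMSO, against 13.9% of genes called lower and 59.8% called higher. Cs (−0.05, adjusted p = 0.52) and Idh3a (−0.13, adjusted p = 0.25) did not pass on CPM, but median-of-ratios scaling, edgeR and DESeq2 each called all 9 members lower. With median-of-ratios scaling Cs was −0.53 (adjusted p = 2.0e-05) and Idh3a −0.61 (adjusted p = 1.7e-04). On CPM the 7 were also the members without overlap between the groups (15.7% of genes tested lay lower without overlap). The members' median was −0.62, or −1.08 relative to the median gene. The split over all genes was 8733 higher and 2036 lower on CPM and 4978 and 4746 with median-of-ratios scaling. Quantile normalization instead called 5 members lower and Cs higher (+0.19, adjusted p = 0.016), with Idh3a, Ogdh and Mdh2 not called.

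In the kidneys labelled PTKO, 8 members fell at 3 weeks (13.9% of genes called lower, 57.2% higher) and 5 at 6 weeks (11.4% lower, 53.7% higher). Libraries lay lower without overlap for 9 members at 3 weeks (15.3% of genes tested) and for 6 at 6 weeks (12.7%), where the sixth was Mdh2. The 5 were Idh3b, Ogdh, Sucla2, Suclg1 and Fh1, and their log2 changes at 6 weeks ran from −0.34 (Ogdh) to −0.66 (Sucla2), although quantile normalization turned Ogdh to +0.08 (adjusted p = 0.60). The median over the 9 members was −0.63 at 3 weeks and −0.34 at 6 weeks, or −1.05 and −0.70 relative to the median gene. Median-of-ratios scaling called all 9 lower at both times, with 4807 genes higher and 4568 lower at 3 weeks and 4193 and 4215 at 6 weeks. On CPM those splits were 8354 and 2032, and 7842 and 1659. Cs was called higher with quantile normalization at both times (+0.17, adjusted p = 0.033, and +0.22, adjusted p = 0.012).

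**Figure D2:**
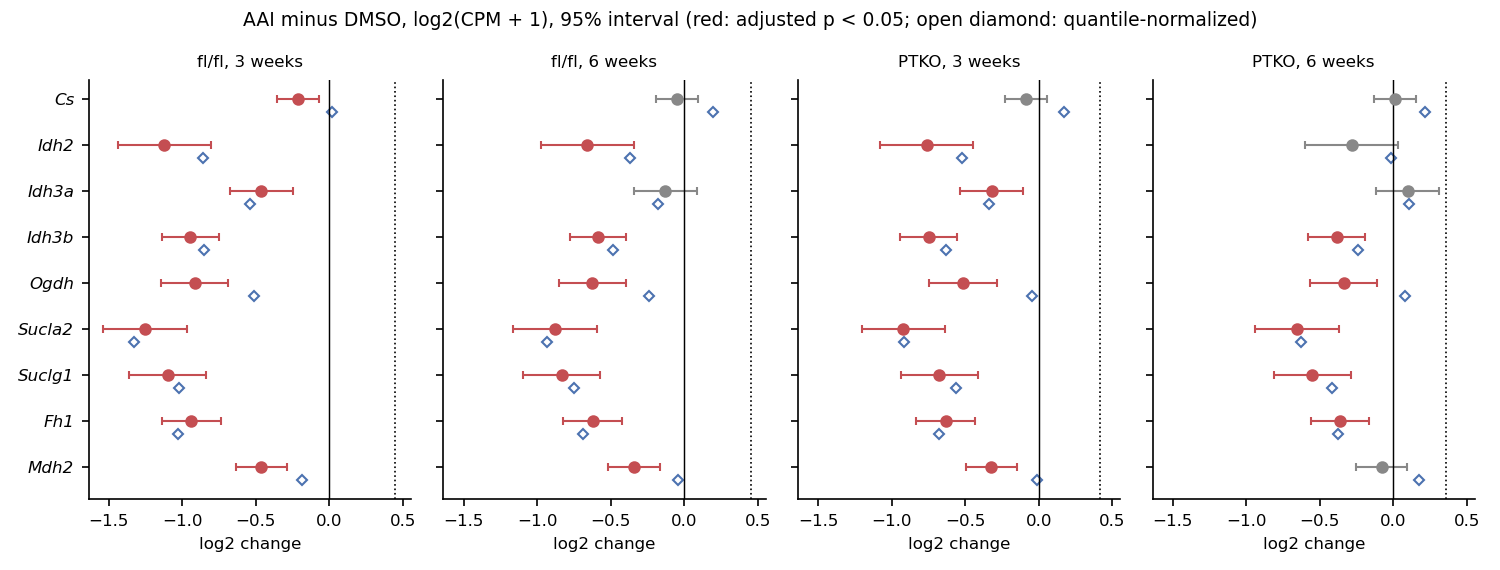
Log2 change from DMSO on the log2(CPM + 1) scale (x axis) of the 9 members in 4 comparisons, with 95% intervals, red where the adjusted p is under 0.05 and grey otherwise; the dotted line is the median of all genes. Open diamonds are quantile-normalized estimates, which put Cs above 0 in all 4 panels and turn Ogdh and Mdh2 in PTKO at 6 weeks to above 0.

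Citrate synthase, which commits acetyl-CoA to the cycle and whose activity is a common measure of mitochondrial mass, was the steadiest member on the CPM scale. Its levels in fl/fl were 404, 405 and 397 CPM with DMSO, 338, 365 and 336 at 3 weeks, and 371, 406 and 389 at 6 weeks. PTKO kidneys had 421, 416 and 402 CPM, then 374, 399 and 393, then 417, 404 and 427. The libraries taken at 3 weeks were below DMSO in both genotypes, and later the ranges overlapped. Its fall in fl/fl at 3 weeks (−0.21 ± 0.07 SE, adjusted p = 0.0084) left 86.2% of the DMSO mean, and the other 3 comparisons did not pass. The size depended on the scaling. Quantile normalization gave +0.02 for that fall, while median-of-ratios scaling gave −0.68 (adjusted p = 1.0e-06) and edgeR −0.70. Median-of-ratios scaling also called Cs lower in fl/fl at 6 weeks (−0.53) and in PTKO at 3 and 6 weeks (−0.54 and −0.39). Among all genes tested, 20.6% had a more negative log2 change, against 5.49% for Sucla2.

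The isocitrate step is run by mitochondrial enzymes of different coenzyme use. Idh2 makes NADPH, and the NAD+-dependent enzyme is built from the catalytic subunit Idh3a with Idh3b and Idh3g. Idh2 was 588, 602 and 560 CPM in fl/fl DMSO, 271, 284 and 248 at 3 weeks, and 353, 406 and 349 at 6 weeks. It fell by 1.12 on the log2 scale at 3 weeks (SE 0.15, adjusted p = 4.4e-06) and by 0.66 at 6 weeks (adjusted p = 8.8e-04), with no library overlap at either time.

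In PTKO, Idh2 was 563, 618 and 469 CPM with DMSO, 298, 346 and 323 at 3 weeks, and 424, 356 and 599 at 6 weeks. The 6-week replicate 3 stood inside the DMSO range and the other two were below it. That library also had the highest summed thick ascending limb markers, 13617.5 CPM over 5 genes against 7622 and 5788 in its group, and none of the 5 was at 0. The part of those markers in the Idh2 level was not tested. With it, the 6-week change from DMSO was −0.28 (adjusted p = 0.11), and without it −0.49 (adjusted p = 0.0030).

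Idh3a changed less than its partner subunits. In fl/fl it was 179, 170 and 179 CPM with DMSO, 129, 136 and 117 at 3 weeks, and 161, 186 and 138 at 6 weeks. The PTKO libraries gave 187, 183 and 205, then 145, 167 and 149, then 192, 200 and 223. It fell at 3 weeks in both genotypes (−0.46, adjusted p = 5.6e-04, and −0.32, adjusted p = 0.0099). At 6 weeks the libraries overlapped DMSO in both genotypes, and the PTKO mean was 107% of DMSO (+0.10 on the log2 scale, adjusted p = 0.41). Scaling turned the PTKO value: it was −0.30 with median-of-ratios scaling (adjusted p = 0.031) and −0.27 with edgeR (adjusted p = 0.062). In fl/fl the 6-week value was −0.61 with median-of-ratios scaling (adjusted p = 1.7e-04), where CPM gave −0.13.

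Idh3b, a regulatory subunit of the same enzyme, was 337, 343 and 327 CPM in fl/fl DMSO, 174, 175.5 and 171 at 3 weeks, and 199, 260 and 214 at 6 weeks. PTKO libraries held 363, 358 and 350, then 192, 227 and 219, then 289, 276 and 255.5 CPM. AAI libraries were below DMSO in all 4 comparisons, and all 4 passed the test (log2 changes −0.95, −0.59, −0.75 and −0.39 in the order fl/fl 3 and 6 weeks, PTKO 3 and 6 weeks).

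Ogdh, the decarboxylating subunit of the 2-oxoglutarate dehydrogenase complex, had the most reads of the 9. In fl/fl it was 1144, 1169 and 1209 CPM with DMSO, 669, 645 and 555 at 3 weeks, and 724, 824 and 741 at 6 weeks. Among PTKO libraries it was 1289, 1158 and 1237, then 754, 886 and 946, then 986, 923 and 1005. AAI libraries did not overlap DMSO in any of the 4 comparisons. The log2 changes were −0.92, −0.62, −0.52 and −0.34 in the same order, all past the test, but with quantile normalization only the first was called (−0.51, adjusted p = 0.0012), and the last was +0.08.

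Succinyl-CoA synthetase pairs the shared alpha subunit Suclg1 with either Sucla2, whose enzyme makes ATP, or Suclg2, whose enzyme makes GTP. Sucla2 was 236, 223 and 222 CPM in fl/fl DMSO, 103, 103 and 79.2 at 3 weeks, and 111, 156 and 107 at 6 weeks. With PTKO the levels were 245, 238 and 260, then 116, 147 and 130, then 170, 157 and 144. It had the most negative log2 change of the 9 in all 4 comparisons (−1.25, −0.88, −0.92 and −0.66), without library overlap. The largest adjusted p of the 4 was 5.5e-04.

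Suclg1 was 333, 348 and 332.5 CPM in fl/fl DMSO, 170, 154 and 147 at 3 weeks, and 159, 233 and 182.5 at 6 weeks. The PTKO levels were 351, 371 and 342, then 189, 244.5 and 235, then 267, 232 and 228. It fell in all 4 comparisons (−1.10, −0.83, −0.68 and −0.55), with a largest adjusted p of 0.0011. The fl/fl 6-week libraries were the most spread, and replicate 2, the shallowest library, was the highest of its group for all 9 members. That library also had the lowest summed macrophage markers of its group (2710 CPM against 4668 and 4218). Its summed markers of the first proximal tubule segments were the highest (6283 CPM against 3879 and 5309). Replicate 3 of that group was nearly as shallow (12931815 reads against 11722625), and its 9 members summed to 2620 CPM against 3058 in replicate 2. The part of depth or of these markers in the levels of replicate 2 was not tested.

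Fumarase (Fh1), which hydrates fumarate to malate, was 192, 197 and 193.5 CPM in fl/fl DMSO, 103, 105 and 95.4 at 3 weeks, and 113.5, 145 and 121 at 6 weeks. In PTKO kidneys it was 205, 207 and 198, then 113, 139 and 141, then 164, 157 and 153. It fell in all 4 comparisons (−0.94, −0.62, −0.63 and −0.36). DMSO libraries of both genotypes lay between 192 and 207 CPM and every AAI library was at or below 164.

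Mdh2, which regenerates oxaloacetate and serves the malate-aspartate shuttle, was 508, 510 and 501 CPM in fl/fl DMSO, 378, 359 and 364 at 3 weeks, and 383, 441 and 378 at 6 weeks. PTKO kidneys had 533, 553 and 526, then 385, 457 and 450, then 514, 492.5 and 518. It fell in 3 of the 4 comparisons (−0.46, −0.34 and −0.32), and in PTKO at 6 weeks it was −0.08 (adjusted p = 0.40) although the libraries did not overlap. None of these calls held with quantile normalization, where the values were −0.18, −0.04, −0.01 and +0.18. All 4 were called lower with median-of-ratios scaling, at −0.93, −0.82, −0.77 and −0.48, the last with an adjusted p of 7.6e-04. In PTKO at 6 weeks edgeR gave −0.44 (adjusted p = 0.0024).

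The second question is whether the kidneys labelled PTKO differed from fl/fl. With DMSO they did not pass for any member: 0 of 9 by limma, edgeR or DESeq2, 0 at an unadjusted limma p under 0.05, and 0.288% of all genes called in either direction. The differences ran from −0.09 (Idh2) to +0.12 (Sucla2). For Sucla2 the 95% interval was −0.16 to 0.41, so a difference of up to 0.41 was not outside the error. In 5 members (Idh3a, Idh3b, Sucla2, Fh1 and Mdh2) every PTKO library lay above every fl/fl library, as in 7.04% of genes tested.

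At 3 weeks of AAI, 5 members were higher in PTKO (6.22% of genes called higher): Suclg1, Ogdh, Sucla2, Fh1 and Idh3b. Suclg1 had the largest difference, +0.49 ± 0.12 SE (adjusted p = 0.017), with 189, 244.5 and 235 CPM against 170, 154 and 147 in fl/fl. Ogdh differed by +0.47 (adjusted p = 0.013), Sucla2 by +0.46 (0.035), Fh1 by +0.37 (0.019) and Idh3b by +0.29 (0.046). All 9 members had every PTKO library above every fl/fl library, as did 14.5% of genes tested. The other 4 ran from +0.17 (Cs) to +0.27 (Idh3a), with adjusted p from 0.077 to 0.24. The count depended on the libraries: it was 0 without fl/fl replicate 3, PTKO replicate 2 or PTKO replicate 3, and 2 without fl/fl replicate 2. DESeq2 called 8, and a fit on the compared groups alone called 1. Marker genes moved with this comparison: 8 of 10 markers of the first proximal tubule segments (S1 and S2) and 3 of 6 of the last segment (S3) were higher in PTKO, and 6 of 7 macrophage markers lower (8% of genes called lower). Their part in the difference was not tested.

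At 6 weeks, 5 members were higher in PTKO (3.27% of genes called higher): Ogdh (+0.35), Idh3a (+0.35), Mdh2 (+0.34), Fh1 (+0.32) and Idh3b (+0.29), with adjusted p from 0.015 to 0.043. Mdh2 showed it most clearly, with 514, 492.5 and 518 CPM against 383, 441 and 378. Suclg1 (+0.35, adjusted p = 0.064) and Sucla2 (+0.34, adjusted p = 0.091) did not pass, and their libraries overlapped. Overlap was absent in 4 members, Idh3a, Ogdh, Fh1 and Mdh2 (6.59% of genes tested lay higher without overlap). Cs was +0.10 (adjusted p = 0.33). Idh2 was +0.28 (adjusted p = 0.20), and +0.08 without PTKO replicate 3. The median over the 9 was +0.34, against −0.11 for all genes. Leaving out the 3 libraries that stand apart gave 8 members higher. The fl/fl library dropped there had the highest member sum of its group (3058 CPM against 2576 and 2620). The PTKO library dropped had the lowest of its group (3198 CPM against 3422 and 3551). The difference in the sum therefore had to widen, so this count of 8 does not test whether the difference holds. Without fl/fl replicate 1 or 3 the count was 0, without PTKO replicate 1 or 2 it was 2, without PTKO replicate 3 it was 3, and in the fit on the groups alone 0. At this time 3 of 10 S1 and S2 markers were higher in PTKO, and 4 of 7 macrophage, 4 of 6 fibroblast and 3 of 5 podocyte markers lower (11.8% of genes called lower). Of the 6 S3 markers 0 were called, with a median of −0.03 and values from −1.44 to 2.26. Their part in the difference was not tested.

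**Figure D3:**
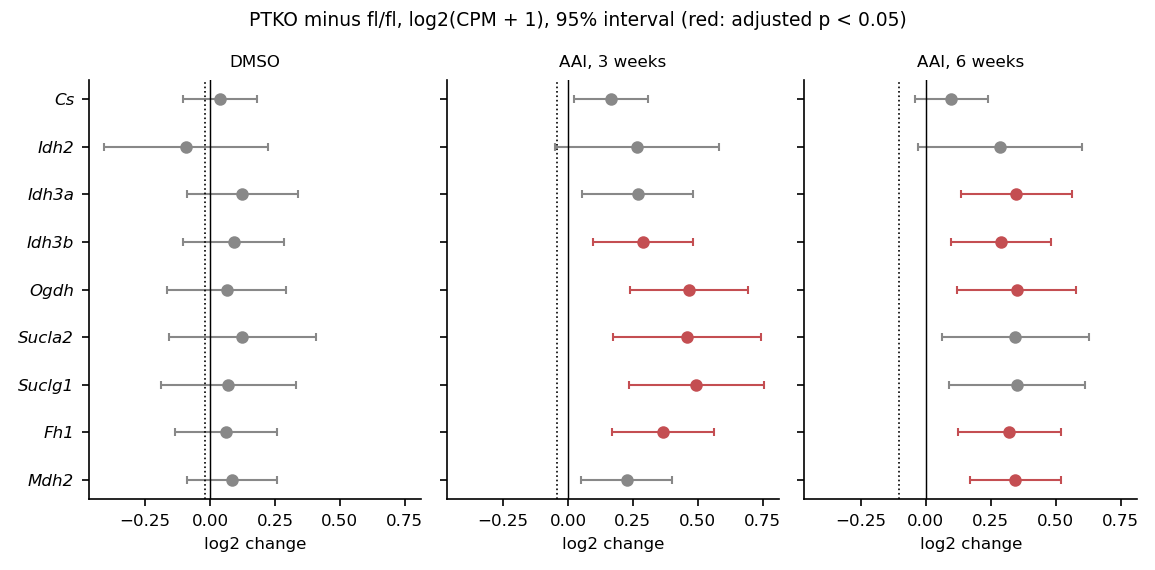
Log2 difference PTKO minus fl/fl on the log2(CPM + 1) scale (x axis) for the 9 members with DMSO and with AAI at 3 and 6 weeks, with 95% intervals, red where the adjusted p is under 0.05; the dotted line is the median of all genes. No member is called with DMSO and 5 are called at each AAI time, all with positive differences.

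Whether the response to AAI itself differed by genotype was tested as an interaction. No member passed at 3 weeks (0.281% of genes called) or at 6 weeks (0.0685%), by limma, edgeR or DESeq2. At an unadjusted limma p under 0.05 the counts were 3 and 1 of 9. The estimates were positive for all 9 at both times, from +0.13 (Cs) to +0.42 (Suclg1) at 3 weeks and from +0.06 (Cs) to +0.38 (Idh2) at 6 weeks. For Suclg1 at 3 weeks the 95% interval was 0.06 to 0.79 (adjusted p = 0.21). A difference between the genotypes in the response was thus not shown for any member.

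The third question is recovery between 3 and 6 weeks. In fl/fl 3 members were higher at 6 weeks (7.16% of genes called higher): Idh3b (+0.36, adjusted p = 0.018), Idh3a (+0.34, 0.039) and Fh1 (+0.32, 0.037). All 9 estimates were positive, with a median of +0.32 against 0.00 for all genes. Median-of-ratios scaling, edgeR, the fit on the groups alone, and the fit without fl/fl 6-week replicate 2 or fl/fl 3-week replicate 3 each called 0. Without fl/fl 3-week replicate 1 it was 1. In that 6-week replicate 2 the 9 members summed to 3058 CPM, against 2576 and 2620 in the other two. Markers moved between these times as well: 5 of 6 S3 markers (median +2.53) and 4 of 5 thick ascending limb markers (median +1.11) were higher at 6 weeks. Of the injured tubule markers 2 of 6 were lower, and of the macrophage markers 1 of 7 (6.07% of genes called lower), while 0 of the 10 S1 and S2 markers were called. Their part in the members' change was not tested.

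In PTKO 3 members were higher at 6 than at 3 weeks (2.92% of genes called higher): Idh2 (+0.48, adjusted p = 0.049), Idh3a (+0.42, 0.018) and Idh3b (+0.36, 0.021). The Idh2 value was +0.27 (adjusted p = 0.17) without PTKO 6-week replicate 3. The count was 1 without that library, without 6-week replicate 1 or without 3-week replicate 3, and 0 without 3-week replicate 1 or in the fit on the groups alone. The change from 3 to 6 weeks did not differ by genotype for any member (limma, edgeR and DESeq2 0 of 9, 0 at an unadjusted limma p under 0.05, 0% of all genes called). The estimates ran from −0.14 (Suclg1) to +0.12 (Mdh2). In PTKO 3 of 5 thick ascending limb markers were higher at 6 than at 3 weeks (median +0.90). Lower were 3 of 6 fibroblast, 2 of 6 injured tubule and 1 of 7 macrophage markers (8.26% of genes called lower), while 0 of the 10 S1 and S2 and 0 of the 6 S3 markers were called. Their part in the change was not tested.

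After AAI, summed proximal tubule markers fell, as the cycle genes did, and summed macrophage markers rose. The 10 markers of the first proximal tubule segments (such as Slc34a1 and Lrp2) summed to 19898 ± 583 CPM in fl/fl DMSO, 4491 ± 1501 at 3 weeks and 5157 ± 1209 at 6 weeks (SD, n = 3). In PTKO the sums were 21848 ± 1906, 7812 ± 1550 and 8457 ± 1172 CPM. Of the 10, all fell in fl/fl at both times (18.2% and 13.9% of genes called lower), and 9 and 8 in PTKO (13.9% and 11.4%). Summed macrophage markers (7 genes, none at 0 in any group) rose from 119 to 167 CPM in fl/fl DMSO to 4645 to 7830 at 3 weeks and 2710 to 4668 at 6 weeks. In PTKO they went from 109 to 131 CPM to 1517 to 3022 and 942 to 2172. All 7 macrophage genes were called higher in fl/fl at 3 and 6 weeks (58% and 59.8% of genes) and in PTKO (57.2% and 53.7%). Other lists moved too. In fl/fl at 3 weeks 4 of 5 thick ascending limb markers were lower (median −1.11, 18.2% of genes called lower). In PTKO at that time 1 of these 5 was lower and 1 higher. In fl/fl at 3 weeks 6 of 6 fibroblast, 6 of 6 injured tubule and 5 of 5 podocyte markers were higher (58% of genes called higher). The part of any of these shifts in the levels of the cycle genes was not tested.

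**Figure D4:**
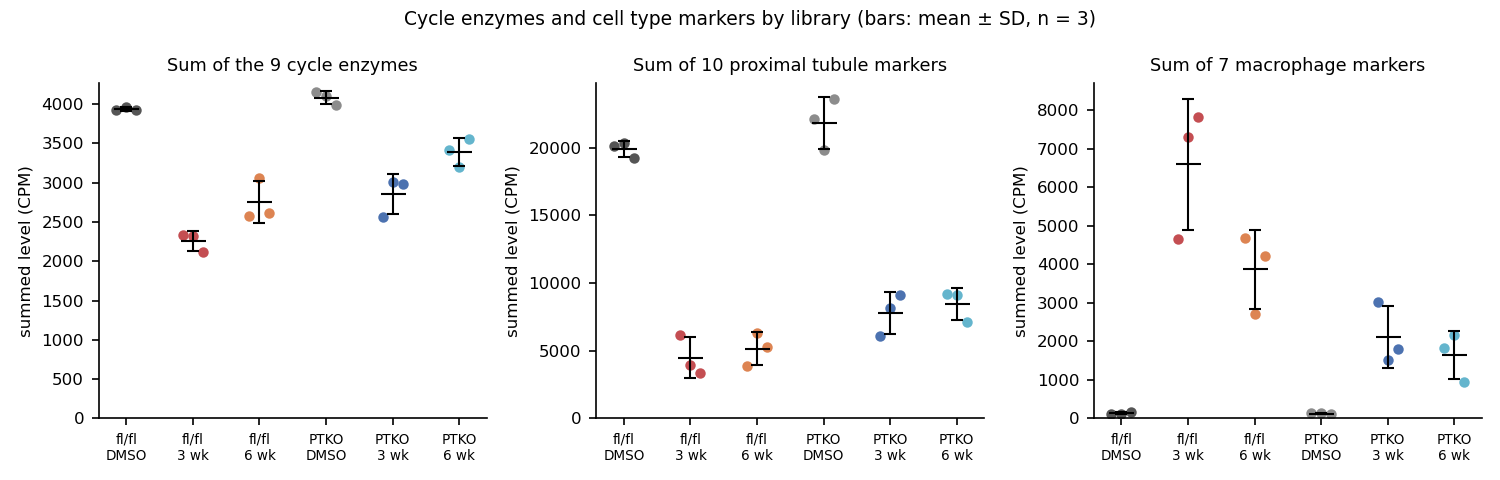
Summed CPM per library (y axes, from 0) of the 9 cycle enzymes, of 10 proximal tubule markers and of 7 macrophage markers by group, with points for libraries and bars for mean ± SD (n = 3). The cycle sum drops to 57.4% of DMSO in fl/fl at 3 weeks, where the proximal tubule sum is lowest and the macrophage sum highest.

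Further subunits of the cycle enzymes also fell. The 8 genes read were Idh3g, Dlst, Dld, Suclg2, Sdha, Sdhb, Sdhc and Sdhd. All 8 fell in fl/fl at 3 and 6 weeks (18.2% and 13.9% of genes called lower) and in PTKO at 3 weeks (13.9%). In PTKO at 6 weeks 7 fell (11.4%). Quantile normalization kept the direction of every one of these calls but called 7 and 3 in PTKO, and 5 were called in PTKO at 6 weeks without the 3 libraries that stand apart. Their medians were −1.13, −0.76, −0.73 and −0.43, in the order fl/fl 3 and 6 weeks, PTKO 3 and 6 weeks. Dld, the lipoamide dehydrogenase shared by several oxidative complexes, had the lowest 3-week value of the 8 in fl/fl (−1.26). Succinate dehydrogenase, which also serves the respiratory chain, gave −1.17 for its flavoprotein Sdha and −0.67 for the membrane anchor Sdhd. In PTKO against fl/fl, 6 of the 8 were higher at 3 weeks (6.22% of genes called higher) and 5 at 6 weeks (3.27%), with none called under DMSO. All 8 were called at both times without the 3 libraries that stand apart, but in the fit on the groups alone 2 were called at 3 weeks and 0 at 6 weeks. Leaving out the 3 drops no 3-week library, and the 3-week median stayed at +0.42, so only the shared estimate of spread changed. At 6 weeks it drops the fl/fl library with the highest and the PTKO library with the lowest member sum. The 6-week median then went from +0.34 to +0.49. These counts of 8 do not test whether the differences hold.

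Suclg2, the GTP-specific partner of Suclg1, had a lower 6-week value in fl/fl (−1.17) than any of the 9 members. Its levels in fl/fl were 284, 288 and 254 CPM with DMSO, 164, 118 and 96.5 at 3 weeks, and 99.2, 132 and 137 at 6 weeks. In PTKO they were 276, 277 and 297, then 158, 221 and 237, then 211, 188 and 192. The change from 3 to 6 weeks was −0.02 in fl/fl and −0.04 in PTKO, and neither passed. The genotype difference was +0.71 at 3 weeks and +0.69 at 6 weeks, both called.

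Ratios within a library, from which its scaling factor nearly cancels, compared partner genes directly. They were tested by an exact two-sided permutation of treatment within genotype over 6 AAI and 6 DMSO libraries, with Benjamini-Hochberg adjustment over 6 tests and a smallest possible p of 0.005. The log2 ratio of Idh3a to Idh3b was −0.93 ± 0.07 in fl/fl DMSO (SD, n = 3), −0.45 ± 0.09 at 3 weeks and −0.47 ± 0.16 at 6 weeks. The PTKO ratios were −0.90 ± 0.11, −0.47 ± 0.08 and −0.41 ± 0.20. The rise was 0.46 at 3 weeks and 0.47 at 6 weeks (exact permutation adjusted p = 0.01 for both), and no AAI library overlapped the DMSO libraries of either genotype.

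The log2 ratio of Idh2 to Idh3a fell by 0.55 at 3 weeks (exact permutation adjusted p = 0.01) and by 0.45 at 6 weeks (exact permutation adjusted p = 0.015). In fl/fl it was 1.73 ± 0.09 with DMSO, 1.07 ± 0.01 at 3 weeks and 1.20 ± 0.12 at 6 weeks (SD, n = 3). PTKO ratios were 1.51 ± 0.29, 1.07 ± 0.04 and 1.13 ± 0.30, with overlap at 6 weeks. The 6-week result did not hold with quantile normalization (−0.16, exact permutation adjusted p = 0.26) or without the 3 libraries that stand apart (−0.30, exact permutation adjusted p = 0.09).

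Sucla2 to Suclg2 moved less. In fl/fl the log2 ratios were −0.26, −0.37 and −0.19 with DMSO, −0.67, −0.19 and −0.28 at 3 weeks, and 0.16, 0.24 and −0.34 at 6 weeks. In PTKO they were −0.17, −0.22 and −0.19, then −0.45, −0.58 and −0.87, then −0.31, −0.26 and −0.41. The 3-week difference was −0.27 (exact permutation adjusted p = 0.042), and it did not pass in 7 of the 12 fits that left out a library: fl/fl DMSO replicate 1 or 3, any PTKO DMSO replicate, fl/fl 3-week replicate 1 and PTKO 3-week replicate 3. Without those its value ran from −0.28 to −0.20. At 6 weeks it was 0.08 (exact permutation adjusted p = 0.45), with fl/fl and PTKO means on opposite sides of their DMSO means.

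**Figure D5:**
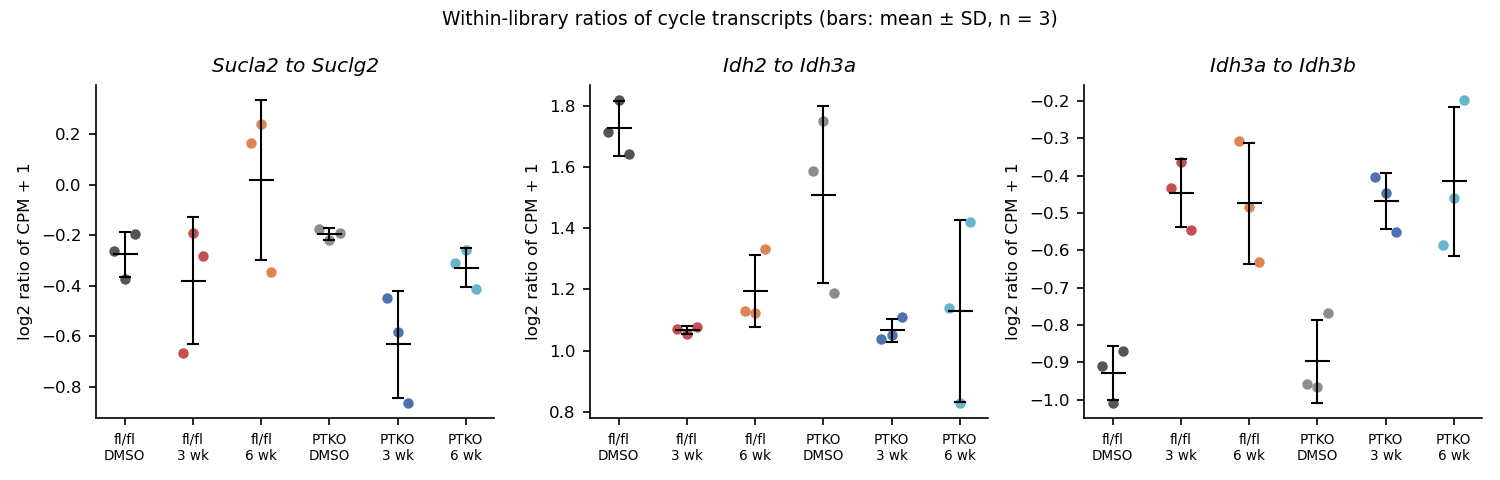
Within-library log2 ratios of CPM + 1 (y axes, not starting at 0) for 3 pairs of cycle genes by group, with points for libraries and bars for mean ± SD (n = 3). Idh3a to Idh3b lies between −1.01 and −0.77 in all DMSO libraries and between −0.63 and −0.20 in all AAI libraries.

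Genes around the cycle were read from fixed lists. Among 13 genes of pyruvate entry, 9 fell and 2 rose in fl/fl at 3 weeks (18.2% of genes called lower, 58% higher). Their median was −0.91, where the median gene of the whole table moved by +0.45. The subunits of the pyruvate dehydrogenase complex, which makes acetyl-CoA from pyruvate, fell together: Pdha1 (−1.05), Dlat (−0.93), Pdhx (−0.70) and Pdhb (−0.64). Pdk2, a kinase that inhibits the complex, went from 455 ± 7.8 to 156 ± 18 CPM (−1.54). The phosphatase catalytic subunit Pdp1, which activates it, rose from 6.29 ± 0.58 to 14.8 ± 1.5 CPM (+1.12), and Pdp2, its other isoform, fell by 1.24. Pdp1 and Pdp2 passed in all 4 AAI comparisons. Pdk4, another inhibitory kinase, was the other gene that rose (+0.75).

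Of 14 cytosolic and anaplerotic partners, 7 fell and 2 rose in fl/fl at 3 weeks (18.2% of genes called lower, 58% higher). Pcx, pyruvate carboxylase, which refills oxaloacetate, went from 1248 ± 62 to 213 ± 85 CPM (−2.62). Pck1, which withdraws oxaloacetate for gluconeogenesis in the proximal tubule, fell by 3.37, and its genotype difference at 3 weeks was +2.55. Mdh1, the cytosolic counterpart of Mdh2, went from 1352 ± 52 to 515 ± 72 CPM (−1.40). Me2, the mitochondrial NAD+-dependent malic enzyme, rose from 7.59 ± 0.04 to 30.5 ± 3.0 CPM (+1.87) and Pck2, the mitochondrial carboxykinase, by +0.93. Me2 and Pck2 were called higher in all 4 AAI comparisons.

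Carriers of cycle intermediates did not all move. In fl/fl at 3 weeks 4 of 7 fell (18.2% of genes called lower). Among them were the oxodicarboxylate carrier Slc25a21 (−2.14), the dicarboxylate carrier Slc25a10 (−1.93) and the aspartate-glutamate carrier Slc25a13 (−1.54). Its isoform Slc25a12 (−0.22), the citrate carrier Slc25a1 (−0.05) and the glutamate carrier Slc25a22 (−0.01) did not pass, while median-of-ratios scaling gave −0.68, −0.51 and −0.46. Among 12 assembly factors and regulators, 6 fell and 2 rose (18.2% of genes called lower, 58% higher). Dhtkd1, which forms an OGDH-like complex for lysine breakdown, fell by 3.26, and the mitochondrial deacetylase Sirt3 by 1.78. Sdhaf2, a succinate dehydrogenase assembly factor, rose by 0.41 but was −0.05 with median-of-ratios scaling. The itaconate-producing enzyme Acod1 (listed as Irg1), an inducible gene of macrophages, was at 0 reads in all fl/fl DMSO libraries and 7.24, 18.4 and 17.97 CPM at 3 weeks.

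Of 15 mitochondrial import and membrane genes, 9 fell and 1 rose in fl/fl at 3 weeks (18.2% of genes called lower, 58% higher). Their median was −0.36 against −0.94 for the members. The chaperone Hspd1 (−1.31), the cristae protein Immt (−0.98), the outer membrane channel Vdac1 (−0.97) and the import chaperone Hspa9 (−0.88) fell, while Vdac2 (+0.18), Vdac3 (+0.18) and Phb2 (−0.01) did not pass and were −0.29, −0.27 and −0.47 with median-of-ratios scaling. Tomm22, the gene that rose (+0.39), was −0.07 with median-of-ratios scaling. The difference between the 2 lists was not tested.

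Of 9 regulators of mitochondrial genes, 6 fell and 2 rose in fl/fl at 3 weeks (18.2% of genes called lower, 58% higher). The median gene of the whole table moved by +0.45. Ppara, a nuclear receptor for fatty acid oxidation genes, went from 285 ± 19 to 77.1 ± 34.2 CPM (−1.95). The estrogen-related receptor genes Esrrg (−0.98) and Esrra (−0.65), their coactivators Ppargc1a (−0.85) and Ppargc1b (−0.75), and Tfam (−0.60), which maintains mitochondrial DNA, fell. Nfe2l2, the antioxidant response factor, rose from 107 ± 4.5 to 249.9 ± 7.1 CPM (+1.22), Nrf1, an activator of respiratory chain genes, rose by 0.65, and Gabpa (−0.21) did not pass. In PTKO, Ppargc1a was −0.40 and Esrrg −0.18 at 3 weeks and neither passed, while Esrrg was higher in PTKO than fl/fl at that time (+0.55). Nrf1 in PTKO was +0.54 at 3 weeks and −0.02 with quantile normalization.

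Across all 18 libraries the levels of the members were correlated. Over their 36 pairs Pearson's r ran from 0.693 (Idh3a with Suclg1) to 0.991 (Idh3b with Fh1), with a median of 0.888. These points share libraries, depth and group, and the values are descriptions. After the group means were removed the range was 0.150 (Idh2 with Idh3b) to 0.935 (Suclg1 with Fh1), with a median of 0.629.

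Among the genes outside the 9 whose pattern was most like the members' mean z-score, of 11784 with a mean of at least 5 CPM, were Atp5a1 (r = 0.988 over 18 libraries), Sdhd (0.988) and Ndufa10 (0.987). Sdhd belongs to the cycle, Atp5a1 to ATP synthase and Ndufa10 to respiratory complex I. Atp5a1 averaged 2347 CPM in fl/fl DMSO, 1300 at 3 weeks and 1553 at 6 weeks, and 2470, 1658 and 2001 in PTKO.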

How the data were processed

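The members and the gene lists were chosen with earlier results of these data known. Kidney cortex RNA was made into stranded total RNA libraries, per the labels' protocols, and the submitters' processing notes name bcl2fastq 2.19, kallisto and mm10. The authors deposited CPM values for 24062 symbols, 27 of which have turned into dates, and 0 are mitochondrially encoded. All 433116 values (100%) were whole reads within 0.01 read, which gave each library's depth, 11722625 to 27213219 reads. Groups came from the labels. The 14604 genes that reached 1 CPM in 3 or more libraries were fitted with limma 3.58.1 (R 4.3.3) on log2(CPM + 1), which understates the fold change of low genes, with 6 group means in a single fit, a trended variance and Benjamini-Hochberg adjustment over all genes tested. A gene counted as called at an adjusted p under 0.05, and intervals are 95%. Recovered reads were tested with edgeR 4.0.16 and DESeq2 1.42.0 as alternatives. Other alternatives were a pseudocount of 0.1, no filter or at least 5 CPM, median-of-ratios scaling, quantile normalization, groups fitted alone, a replicate block and leaving out each library. Leaving out the 3 libraries that stand apart was chosen after seeing the data. At 6 weeks it drops the fl/fl library with the highest and the PTKO library with the lowest member sum of its group. The limma fit was tested on simulated data in which a small set of genes in 1 group was changed by known folds. Those data did not model the shift of the median gene seen after AAI, so they do not test that setting. The naming rule was all members, any gene of the rest of the cycle, up to 3 genes of each other list with the smallest adjusted p, and the 5 genes of at least 5 mean CPM most like the members. Other genes named were chosen after their values were seen. Some genes that the rule or the lists gave are not reported here. Sequences are from RefSeq (GRCm38.p6) and gene models from GENCODE.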

Additional observations from a re-analysis of the deposited data

How the results depend on the processing

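Apart from the fits that left out a single replicate, 107 counts of members stayed within 1.5 times and 13 did not. These counts join both directions, so Cs called higher with quantile normalization can replace a member called lower. Comparisons in which no member was called on CPM are among the 107. Members lower in PTKO at 6 weeks numbered 9 with median-of-ratios scaling, 8 with edgeR and 9 with DESeq2, against 5. Members higher in PTKO than fl/fl at 3 weeks numbered 1 with the groups fitted alone and 8 with DESeq2, against 5, and at 6 weeks 3 with no filter, 0 alone and 8 without the 3 libraries that stand apart, against 5. Members higher at 6 than 3 weeks in fl/fl numbered 0 with median-of-ratios scaling, 0 alone, 0 without the 3 libraries and 0 with edgeR, against 3, and in PTKO 0 alone, against 3. Leaving out 1 replicate gave 0 to 6 for PTKO against fl/fl at 3 weeks, 0 to 7 at 6 weeks, 0 to 4 for 6 against 3 weeks in fl/fl and 0 to 3 in PTKO. Of the 45 single-member changes called on CPM, followed over the same settings, 407 values kept direction and call, 41 lost the call, and 2 reversed, both with quantile normalization: Cs in fl/fl at 3 weeks was 0.020 and Ogdh in PTKO at 6 weeks 0.080. Changes from DMSO not called on CPM turned too: with quantile normalization Cs in fl/fl at 6 weeks (+0.19) and in PTKO at 3 weeks (+0.17) and Mdh2 in PTKO at 6 weeks (+0.18), and with median-of-ratios scaling Cs (−0.39) and Idh3a (−0.30) in PTKO at 6 weeks, both called lower. The cause was not tested.

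The Sucla2 to Suclg2 ratio at 3 weeks ran from −0.32 to −0.20 with 1 replicate left out, and was −0.28 (exact permutation adjusted p = 0.09) without the 3 libraries. The Idh2 to Idh3a ratio at 6 weeks was −0.16 with quantile normalization and −0.30 without the 3 libraries. The replicate numbers did not pair the libraries: of 45 same-numbered pairs across groups, r ran from −0.37 to 0.49 and 10 were over 0.1. With the replicate number as a block, the ratio differences kept their values but fewer arrangements were possible and the adjusted p rose above 0.05: Sucla2 to Suclg2 −0.27 at 3 weeks, Idh2 to Idh3a −0.55 and −0.45, and Idh3a to Idh3b 0.46 and 0.47 at 3 and 6 weeks. The block moved no count of members by over 1.5 times, and moved the genes called for the interaction at 3 weeks from 41 to 74.

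Counts over all genes were least stable for differences of differences. The 3-week interaction called 41 genes, and 7 with no filter, 64 at 5 CPM, 88 with quantile normalization, 581 alone, 248 without the 3 libraries, 18 with edgeR and 558 with DESeq2. At 6 weeks it called 10, and 1 with the pseudocount of 0.1, 5 at 5 CPM, 18 with quantile normalization, 233 without the 3 libraries, 1 with edgeR and 85 with DESeq2. The genotype difference in the change from 3 to 6 weeks called 0, and 5 with no filter, 3 alone and 48 with DESeq2. PTKO against fl/fl called 42 with DMSO (18 alone, 113 with DESeq2) and 2198 at 6 weeks (163 alone). The change from 3 to 6 weeks called 1932 in fl/fl (562 alone, 571 without the 3 libraries) and 1633 in PTKO (367 alone). Leaving out 1 replicate gave 26 to 53 genes for PTKO against fl/fl with DMSO (26 without fl/fl DMSO replicate 1 or 2), 360 to 2535 against 2077 at 3 weeks (360 without PTKO replicate 2, 424 without fl/fl replicate 3) and 441 to 3765 at 6 weeks (441 without fl/fl replicate 1, 3765 without fl/fl replicate 2). The change from 3 to 6 weeks ran from 642 to 2430 in fl/fl and 536 to 2072 in PTKO, and the interactions from 6 to 432 and 0 to 250.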
